A study of Bos taurus with 12 samples.

Results

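A set of genes taken as stromal fibroblast markers of the bovine endometrium was followed through 12 RNA pools, each hybridised to an Affymetrix bovine array. The genes were pleiotrophin (PTN), midkine (MDK), THY1, decorin (DCN), lumican (LUM), both receptors of platelet-derived growth factor (PDGFRA and PDGFRB) and vimentin (VIM). The genes were chosen with earlier results of these data known. Every probe set that the platform annotation assigned to 1 of these symbols was taken, without regard to its signal. This gave 10 probe sets of 8 genes, with 3 probe sets for PDGFRA, out of 24016 tested probe sets and 9155 named genes. The endometrium came from Simmental heifers and was sampled on day 7 or day 3 of the estrous cycle. It was classed as receptive or non-receptive by the pregnancy success that followed the transfer of in vivo embryos. The 4 groups, receptive and non-receptive endometrium of day 7 and the same classes of day 3, held 3 pools each, and no treatment was named for any of them. The labels give neither the number of animals in a pool nor whether the pools of a group came from different animals, so p-values measure the spread between pools, which may be technical.

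Fibroblasts of the endometrial stroma lie under and between the epithelium and the glands and build the extracellular matrix that carries them. PTN and MDK are related heparin-binding growth factors, which are secreted and bind to proteoglycan receptors such as syndecans and receptor-type protein tyrosine phosphatase zeta. DCN and LUM are small leucine-rich proteoglycans that bind collagen fibrils and regulate their assembly. PDGFRA and PDGFRB are receptor tyrosine kinases typical of mesenchymal cells, PDGFRB being found on pericytes as well. THY1 is a surface glycoprotein of fibroblasts that T cells of some species also carry, and VIM is the intermediate filament protein of mesenchymal cells. In whole tissue RNA, fewer cells of a type and less RNA per cell cannot be told apart. Whether the signals of these genes came from fibroblasts was not tested.

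The values are log2 signals as deposited, so a difference of 1 unit is a doubling of the signal. They hold no depth in counts, and the number of arrays limits their precision. Array medians lay between 6.64 and 6.76. Over both receptivity groups, 2268 probe sets were lower and 1144 were higher on day 7 than on day 3 (limma, Benjamini-Hochberg adjusted p under 0.05). This split depended on the scaling of the arrays, with 1814 lower and 1430 higher after quantile normalization and 1562 lower and 1601 higher after centring each array on its median. The gap between the 3' and the 5' actin control, a measure of RNA length, was 0.82 to 1.25 log2 units in receptive day 7, 0.02 to 0.63 in non-receptive day 7, 1.05 to 3.11 in receptive day 3 and 0.48 to 0.93 in non-receptive day 3 pools. No member had a value at the floor of 0, and 9 of the 10 probe sets had a mean signal above the 25th percentile of all probe sets, the exception being PDGFRA probe set Bt.29877.1.S1_at.

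Averaged over receptivity, PTN, MDK and THY1 were less abundant on day 7 than on day 3, and no member was more abundant. LUM and DCN had differences of similar or larger size that did not pass the test, and their pools scattered widely. PDGFRB, PDGFRA and VIM did not pass either, so the calls cover PTN, MDK and THY1 and not the set as a whole. Thus 3 of 10 probe sets passed in the lower direction, where 9.44% of all probe sets did (14.2% in either direction). An unadjusted p under 0.05 was reached by 6 of the 10, and by 30.8% of all probe sets. The median change was -0.37 log2 units over the 10 probe sets, 3 of which are of PDGFRA, and -0.87 over the 8 genes with the brightest probe set of each, against -0.05 over all probe sets. Because the members were chosen with earlier results of these data known, the comparisons with all probe sets are a description and not a test. The call of 3 became 4 without pool 3 of non-receptive day 3, when LUM and DCN passed and THY1 did not. It was also 4 with the filter on low signal and without probe sets at the floor. The count fell to 2 with median centring, with the pool number as a replicate block and with the actin gap as a covariate. It also fell to 2 in some of the fits that left out a pool.

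**Figure D1:**
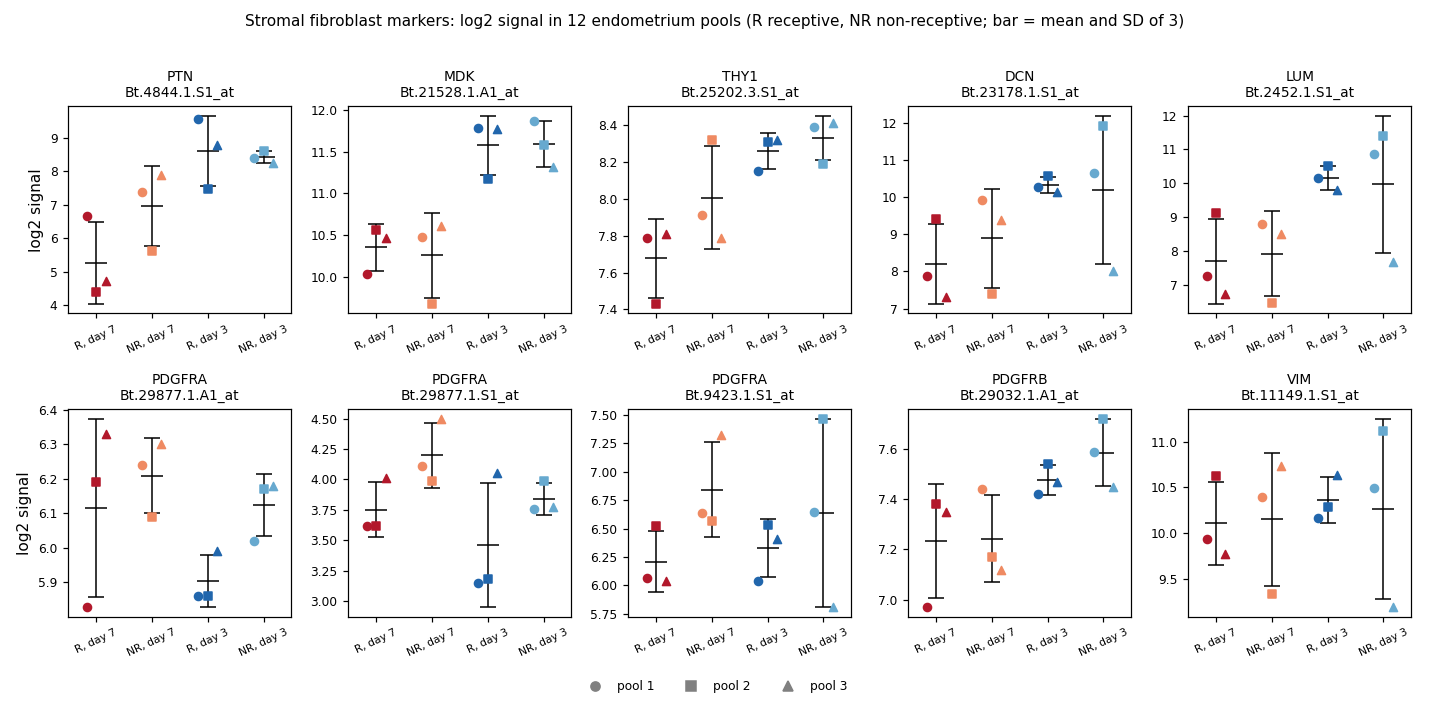
Log2 signal (vertical axis) of the 10 probe sets in receptive (R) and non-receptive (NR) endometrium of day 7 and day 3 (horizontal axis). Points are pools, with a symbol for each pool number, and bars give the mean and SD of 3 pools. The 6 MDK values of day 7 lie between 9.67 and 10.61 and those of day 3 between 11.17 and 11.87, while the DCN and LUM values of pool 3 of non-receptive day 3 lie at 8.02 and 7.67, among those of day 7.

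MDK, a growth factor that acts on proliferation and migration of cells, separated the days most clearly. Its signals (Bt.21528.1.A1_at) were 10.03, 10.56 and 10.46 in receptive and 10.48, 9.67 and 10.61 in non-receptive pools of day 7, against 11.79, 11.17 and 11.78 in receptive and 11.87, 11.58 and 11.32 in non-receptive pools of day 3. All 6 pools of day 7 were below all 6 pools of day 3. MDK was the only member without such an overlap, and 5.16% of all probe sets were lower without overlap in this way. The averaged change was -1.28 ± 0.20 log2 units (SE), which is 2.43-fold lower on day 7 (adjusted p = 0.00481). It passed under each of the 19 alternatives, with adjusted p up to 0.0213. The change was -1.23 in receptive and -1.34 in non-receptive endometrium.

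PTN, the second member of the midkine family, fell further and with more scatter. Its signals (Bt.4844.1.S1_at) were 6.66, 4.41 and 4.71 in receptive and 7.39, 5.62 and 7.90 in non-receptive pools of day 7, against 9.56, 7.48 and 8.80 in receptive and 8.40, 8.62 and 8.26 in non-receptive pools of day 3. The days overlapped only through the non-receptive pool of day 7 with 7.90 and the receptive pool of day 3 with 7.48. The averaged change was -2.40 ± 0.53 log2 units, 5.3-fold lower on day 7 (adjusted p = 0.0169). It passed in 18 of 19 alternatives. The exception was the actin gap as a covariate, with which the change was -1.63 (adjusted p = 0.061). The mean actin gap was 1.01 in receptive and 0.37 in non-receptive pools of day 7, against 1.99 in receptive and 0.63 in non-receptive pools of day 3.

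The PTN mean was 5.26 ± 1.22 in receptive and 6.97 ± 1.20 in non-receptive pools of day 7, against 8.61 ± 1.05 in receptive and 8.43 ± 0.18 in non-receptive pools of day 3 (SD of 3 pools). Receptive endometrium thus held both the lowest and the highest mean, and no neighbours in the order of the means differed past the threshold. The change between days was -3.35 ± 0.75 in receptive endometrium (10.2-fold lower, adjusted p = 0.0521) and -1.46 ± 0.75 in non-receptive endometrium (adjusted p = 0.305). Each was smallest under a different alternative, so these smallest values are not a pair. The receptive change was -2.13 with the actin gap as a covariate (adjusted p = 0.159). The non-receptive change was -0.78 without pool 2 of non-receptive day 7 (adjusted p = 0.584). The changes of the receptivity groups were not shown to differ. Their difference in the main fit was -1.90, with a 95% interval from -4.25 to 0.45 (adjusted p = 0.999). It ranged from -2.60 to -1.01 under the 19 alternatives, and passed in 0 of them.

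THY1 passed with a small change. Its signals (Bt.25202.3.S1_at) were 7.79, 7.43 and 7.81 in receptive and 7.91, 8.32 and 7.79 in non-receptive pools of day 7, against 8.15, 8.31 and 8.32 in receptive and 8.39, 8.19 and 8.41 in non-receptive pools of day 3. Only pool 2 of non-receptive day 7 reached into the range of day 3. The averaged change was -0.45 ± 0.11 log2 units, 1.37-fold lower on day 7 (adjusted p = 0.0279). It passed in 10 of 19 alternatives, with adjusted p between 0.0113 and 0.0703. The call was lost without pool 2 of receptive day 7, without pool 1 or 3 of non-receptive day 7, without pool 2 or 3 of receptive day 3 and without pool 1 or 3 of non-receptive day 3, the values then lying between -0.44 and -0.39. It was also lost after median centring (-0.39, adjusted p = 0.0506) and with the pool number as a replicate block (-0.45, adjusted p = 0.0544).

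The collagen-binding proteoglycans LUM and DCN, which are neighbouring genes in the current bovine RefSeq annotation (ARS-UCD2.0), were the members with the widest spread. LUM (Bt.2452.1.S1_at) had 7.26, 9.12 and 6.73 in receptive and 8.81, 6.49 and 8.50 in non-receptive pools of day 7, against 10.17, 10.50 and 9.81 in receptive and 10.87, 11.40 and 7.67 in non-receptive pools of day 3. A single pool of day 3, pool 3 of the non-receptive group, lay within the range of day 7, and the other 5 pools of day 3 were above all pools of day 7. The averaged change was -2.25 ± 0.71 log2 units with a 95% interval from -3.83 to -0.67 (adjusted p = 0.0607). Without that pool it was -2.83 (adjusted p = 0.013), and without pool 2 of receptive day 7, the highest LUM value of its day, it was -2.61 (adjusted p = 0.0458). At the same change of -2.25, LUM also passed with the filter on low signal (adjusted p = 0.0363) and without probe sets at the floor (adjusted p = 0.0493), so that it passed in 4 of 19 alternatives.

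DCN (Bt.23178.1.S1_at) had 7.89, 9.41 and 7.32 in receptive and 9.91, 7.39 and 9.39 in non-receptive pools of day 7, against 10.27, 10.56 and 10.13 in receptive and 10.66, 11.92 and 8.02 in non-receptive pools of day 3. The same pool 3 of non-receptive day 3 was the only pool of day 3 that overlapped with day 7. The averaged change was -1.71 ± 0.69 log2 units with an interval from -3.24 to -0.17 (adjusted p = 0.125). Without that pool the change was -2.25 (adjusted p = 0.0285), and DCN passed under no other alternative.

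The receptors of platelet-derived growth factor differed little between days. PDGFRB (Bt.29032.1.A1_at) had 6.97, 7.38 and 7.35 in receptive and 7.44, 7.17 and 7.12 in non-receptive pools of day 7, against 7.42, 7.54 and 7.47 in receptive and 7.59, 7.72 and 7.45 in non-receptive pools of day 3. Within each receptivity group the days did not overlap, although over all pools they met between 7.42 and 7.44. The change was -0.29 ± 0.10 log2 units, with an interval from -0.52 to -0.07 (adjusted p = 0.0787), and it passed in 0 of 19 alternatives.

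PDGFRA was measured by 3 probe sets, none of which passed, so that their directions carry no call. Bt.29877.1.A1_at had 5.83, 6.19 and 6.33 in receptive and 6.24, 6.09 and 6.30 in non-receptive pools of day 7, against 5.86, 5.86 and 5.99 in receptive and 6.02, 6.17 and 6.18 in non-receptive pools of day 3. Bt.9423.1.S1_at had 6.07, 6.52 and 6.04 in receptive and 6.64, 6.57 and 7.32 in non-receptive pools of day 7, against 6.04, 6.53 and 6.41 in receptive and 6.65, 7.46 and 5.81 in non-receptive pools of day 3. The dimmest, Bt.29877.1.S1_at, had 3.62, 3.62 and 4.01 in receptive and 4.11, 3.99 and 4.50 in non-receptive pools of day 7, against 3.15, 3.18 and 4.05 in receptive and 3.76, 3.99 and 3.77 in non-receptive pools of day 3. In each of them the days overlapped. The averaged changes were 0.15 (interval -0.06 to 0.36), 0.04 (interval -0.55 to 0.63) and 0.33 (interval -0.06 to 0.71) in the same order of probe sets. Bt.29877.1.S1_at passed only without pool 3 of receptive day 3, with a change of 0.47 (adjusted p = 0.0498).

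VIM, the general filament protein of mesenchymal cells, had no day difference larger than its spread. Its signals (Bt.11149.1.S1_at) were 9.93, 10.62 and 9.77 in receptive and 10.39, 9.33 and 10.73 in non-receptive pools of day 7, against 10.16, 10.28 and 10.64 in receptive and 10.49, 11.12 and 9.19 in non-receptive pools of day 3. The lowest and the highest value both came from non-receptive day 3. The change was -0.19 ± 0.35 log2 units, with an interval from -0.97 to 0.60 (adjusted p = 0.765).

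**Figure D2:**
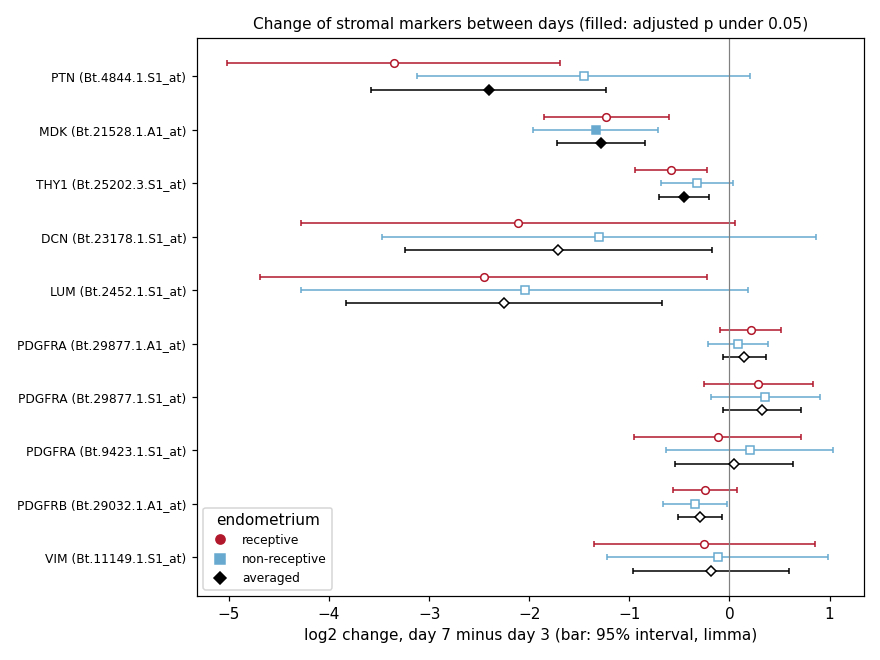
Log2 change between day 7 and day 3 (horizontal axis) of each probe set in receptive, non-receptive and averaged endometrium, with 95% intervals from limma. Filled symbols passed with an adjusted p under 0.05, which were the averaged changes of PTN (-2.40), MDK (-1.28) and THY1 (-0.45) and the change of MDK in non-receptive endometrium (-1.34).

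Within each receptivity group, 3 pools stood against 3 pools, and few calls were made. In receptive endometrium 0 of the 10 probe sets passed limma's test, against 1.96% of all probe sets (1.37% lower), and 4 had an unadjusted p under 0.05, as did 20.4% of all probe sets. The values of both days did not overlap for 6 members of this group, PTN, MDK, THY1, DCN, LUM and PDGFRB, all lower on day 7, where 16.5% of all probe sets were lower without overlap. In non-receptive endometrium MDK passed (adjusted p = 0.0429), against 2.48% of all probe sets (1.66% lower). That call held in 6 of 20 alternatives, and of the 12 fits that left out a pool it held only without pool 2 of receptive day 3. PTN, MDK and PDGFRB were lower without overlap, against 15.6% of all probe sets. The median change of the 10 probe sets was -0.42 in receptive and -0.33 in non-receptive endometrium. Over the 8 genes with the brightest probe set of each it was -0.91 in receptive and -0.82 in non-receptive endometrium, and over all probe sets it was -0.06 and -0.05.

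Receptive and non-receptive endometrium did not differ past the threshold in any member. On day 3, 0 of 10 probe sets passed in limma (0.0125% of all probe sets), and 0 had an unadjusted p under 0.05 (5.26% of all). On day 7, 0 of 10 passed (0% of all), and 1 had an unadjusted p under 0.05 (5.81% of all). Averaged over days, 0 of 10 passed (0.00416% of all), again with 1 unadjusted p under 0.05 (7.38% of all). For the interaction of day and receptivity, 0 of 10 passed (0% of all) and 0 had an unadjusted p under 0.05 (3.39% of all). The intervals were wide for the scattered members. On day 7 the difference of receptive and non-receptive pools was between -2.86 and 1.48 log2 units for DCN and between -2.46 and 2.0 for LUM. They were narrower for PDGFRB, with -0.33 to 0.31, and for MDK, with -0.53 to 0.72.

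The day 7 difference with an unadjusted p under 0.05 was that of PTN, which was lower by 1.71 ± 0.75 log2 units in receptive pools (5.26 ± 1.22) than in non-receptive pools (6.97 ± 1.20, SD of 3 pools each). Its adjusted p was 0.821, and 1 of the receptive pools, with 6.66, lay above the lowest non-receptive pool, with 5.62. Averaged over days the single such value belonged to PDGFRA probe set Bt.29877.1.S1_at, lower by 0.41 ± 0.17 log2 units in receptive pools (adjusted p = 0.665). The other PDGFRA probe sets differed by -0.16 and -0.47 in the same comparison, with intervals from -0.37 to 0.06 and from -1.06 to 0.12. Receptive pools lay below all non-receptive pools for Bt.29877.1.A1_at on day 3, where 6.24% of all probe sets were lower without overlap, and for Bt.9423.1.S1_at on day 7, where 5.23% were. Their adjusted p were 0.939 and 0.826.

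The markers also differed in how far pools of the same group lay apart. The pooled SD within groups was 1.36 log2 units for LUM, 1.32 for DCN and 1.01 for PTN, which placed them at percentiles 97.4, 97.1 and 92.9 of all probe sets. VIM had 0.66 (percentile 86.3) and MDK 0.37 (percentile 69.1). THY1 and PDGFRB were among the less variable probe sets, with 0.19 (percentile 33.9) and 0.16 (percentile 23.4). The scatter of the proteoglycans was larger than the whole day difference of THY1 or PDGFRB.

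To see whether the scatter was shared, the deviation of each pool from the mean of its group was compared between members, with the brightest probe set of each gene. LUM and DCN moved together in all groups. Pool 2 of receptive day 7 was above its group mean by 1.42 in LUM and 1.20 in DCN, and pool 2 of non-receptive day 7 deviated by -1.44 and -1.51. Pool 2 of non-receptive day 3 was above its mean by 1.42 and 1.72, and pool 3 of that group deviated by -2.31 and -2.18. Across the 12 pools Pearson's r was 0.985 and Spearman's rho 0.979, and r was 0.981 without the 2 pools whose DCN deviation lay farthest from the median. With pools exchanged within their groups, the exact permutation p was 0.000772 for either measure, the smallest that 1296 assignments allow, and 0.0216 after adjustment over the 28 pairs of members. This was the only pair that passed.

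**Figure D3:**
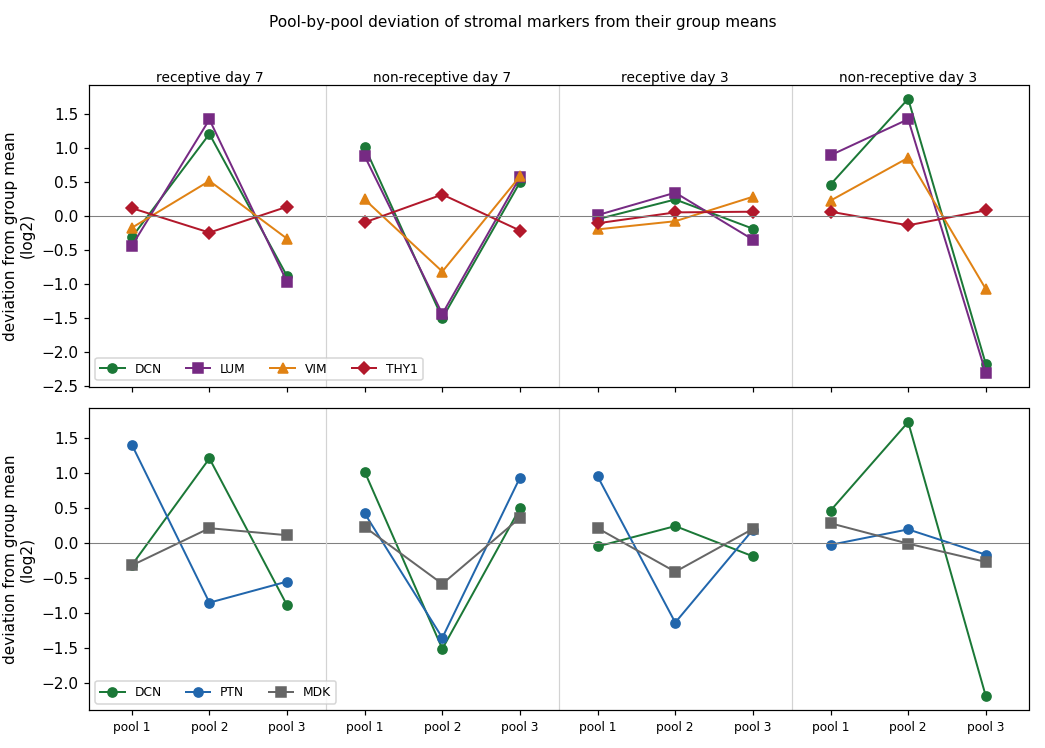
Deviation of each pool from its group mean in log2 units (vertical axis), by group and pool (horizontal axis). The upper panel shows DCN, LUM, VIM and THY1 and the lower panel DCN, PTN and MDK. DCN and LUM lie almost on each other, with their lowest values of -2.18 and -2.31 in pool 3 of non-receptive day 3, and THY1 tends to the opposite side.

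VIM followed the proteoglycans on a smaller scale, with -1.08 in pool 3 and 0.85 in pool 2 of non-receptive day 3 and -0.82 in pool 2 of non-receptive day 7. Its r was 0.94 with DCN and 0.919 with LUM (Spearman's rho 0.888 and 0.853), with exact permutation p of 0.0147 and 0.017 for r and 0.0147 and 0.0154 for rho. The adjusted p was 0.0708 for both r and 0.0719 for both rho. Without the 2 farthest pools of DCN or of LUM, in this order, these r were 0.869 and 0.798. PDGFRA, taken by probe set Bt.9423.1.S1_at alone, had r of 0.889 with VIM (exact permutation p = 0.0139, adjusted p = 0.0708). Its rho was 0.874 (exact permutation p = 0.01, adjusted p = 0.07), and r was 0.753 without the 2 farthest pools of PDGFRA. That probe set deviated by 0.82 in pool 2 and -0.83 in pool 3 of non-receptive day 3. In the same pools Bt.29877.1.A1_at deviated by 0.05 and 0.06, and Bt.29877.1.S1_at by 0.15 and -0.07. The r therefore describes Bt.9423.1.S1_at and not PDGFRA as a gene. THY1 went opposite to the proteoglycans and VIM, with r of -0.747 with DCN, -0.734 with LUM and -0.741 with VIM (rho -0.858, -0.802 and -0.778). Their exact permutation p were 0.0177, 0.0131 and 0.0177 for r and 0.00849, 0.00849 and 0.0193 for rho. The adjusted p was 0.0708 for each r and 0.07, 0.07 and 0.0772 for rho, so that none passed. Without the 2 farthest pools of THY1 r was -0.734, -0.684 and -0.664. These fits still held pool 3 of non-receptive day 3, the lowest in DCN, LUM and VIM. PTN had r of 0.213 with DCN and 0.426 with MDK (rho 0.224 and 0.434), with exact permutation p of 0.504 and 0.278 for r and 0.562 and 0.251 for rho, and adjusted p of 0.543, 0.405, 0.605 and 0.39. The pair that passed the correlation test, DCN and LUM, missed the day test, and the genes that passed the day test, PTN, MDK and THY1, formed no pair that passed.

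**Figure D4:**
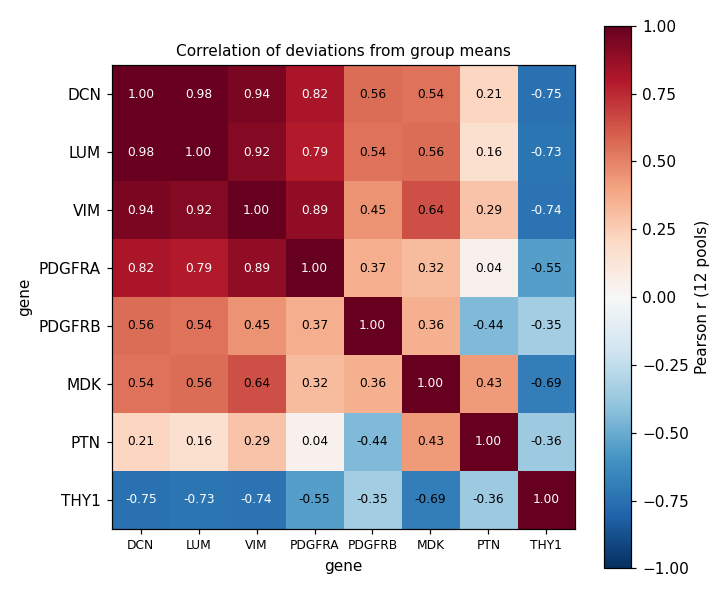
Pearson's r between the deviations from group means of each pair of members over 12 pools (rows and columns are genes, the colour scale runs from -1 to 1). DCN, LUM, VIM and PDGFRA have r between 0.793 and 0.985 with each other, and THY1 has negative r with all 7 other members.

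The genes with the most similar signal over the 12 pools differed between members as well. These r hold the day difference and are given as a description, from 8900 candidate genes. DCN was most like CDH11, an adhesion molecule of mesenchymal cells (r = 0.974), SPARC, a collagen-binding matrix protein (0.97), and MFAP2, a component of microfibrils (0.961). LUM was most like SPARC (0.982), the gelatinase MMP2 (0.969) and the basement membrane collagen COL4A1 (0.965). For PTN they were CDC45, which acts in DNA replication (0.911), the apolipoprotein APOA1 (0.908) and SKA3, which acts at the kinetochore (0.906). For MDK they were RMI2, a member of a complex that resolves DNA recombination intermediates (0.965), LOC786796 (0.958) and the casein CSN2 (0.955). THY1 was most like ZDHHC13 (0.958), POT1 (0.945) and TUBGCP5 (0.943). VIM reached 0.871 with APOE, 0.857 with CCDC3 and 0.839 with LOC788205. PDGFRB was most like GTPBP3 (0.932), HCFC2 (0.931) and RASL12 (0.908). PDGFRA, by probe set Bt.9423.1.S1_at alone, was most like UCP3 (0.93), CLEC3B (0.919) and TLR6 (0.886).

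Of all probe sets, 9.44% were lower on day 7 in the averaged comparison and 14.2% passed in either direction. Among 21 other measured genes of fibroblasts and their matrix, also chosen with earlier results known, 5 were lower and 1 was higher. The change was below 0 in 17 of them, with a median of -0.98 against -0.05 for all probe sets. That median is the value of the dim POSTN probe set, which had a 0 in 1 pool, and the next gene in order was COL1A1 with -0.40. Within receptivity groups the median was -0.35 in receptive and -0.78 in non-receptive endometrium. The lower genes were the fibrillar collagen COL3A1 (-1.73), COL6A1 of microfibrillar collagen VI (-1.63), the matrix glycoprotein FBLN1 (-1.55), the membrane peptidase MME, also named CD10 (-1.30), and fibrillin FBN1 (-1.17). S100A4, a calcium-binding protein of fibroblasts that leukocytes also express, was higher (12.71 ± 0.20 on day 7 and 10.77 ± 0.58 on day 3, SD of 6 pools each, change 1.94). FBLN1 separated the days with a small spread, 9.09 ± 0.20 on day 7 and 10.63 ± 0.47 on day 3 (adjusted p = 0.003). Of the genes that did not pass, SPARC had -1.95 (adjusted p = 0.0502), the metalloproteinase inhibitor TIMP2 0.86 (adjusted p = 0.0596) and the fibrillar collagen COL1A2 -1.50 (adjusted p = 0.0639). Without pool 3 of non-receptive day 3, 9 genes of the list were lower. Without pool 1 or 3 of receptive day 7, pool 3 of non-receptive day 7, pool 3 of receptive day 3 or pool 1 of non-receptive day 3 there were 2, and without pool 2 of non-receptive day 7 or pool 1 or 2 of receptive day 3 there were 3. The mean log2 signal of the list was lowest in its day in pool 3 of non-receptive day 3, at 7.70, where the other day 3 pools lay between 8.31 and 8.97.

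Relatives of DCN and LUM gave 1 call in each direction, where 9.44% of all probe sets passed as lower and 14.2% in either direction. Of 9 measured small leucine-rich proteoglycans, osteomodulin (OMD) was lower (-0.28, adjusted p = 0.0343) and chondroadherin (CHAD) was higher (1.13, adjusted p = 0.0299), with a median of -0.28. OMD did not pass after quantile normalization, after median centring, with a trended and robust variance or with the actin gap as a covariate. It also did not pass when any 1 of 9 pools was left out (pools 1 and 3 of receptive day 7, pools 1 and 2 of non-receptive day 7, all pools of receptive day 3, and pools 1 and 2 of non-receptive day 3). Biglycan (BGN), which like decorin binds collagen, had -1.42 (adjusted p = 0.0566). Epiphycan (EPYC) had -0.935 (adjusted p = 0.125) and asporin (ASPN) -0.405 (adjusted p = 0.296).

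Of 11 measured receptors of PTN and MDK, nucleolin (NCL), an abundant nucleolar protein that also binds both factors at the cell surface, was lower on day 7 (11.64 ± 0.13) than on day 3 (12.03 ± 0.10, SD of 6 pools each), with a change of -0.39 (adjusted p = 0.0158). Integrin ITGB1 had -0.29 (adjusted p = 0.0506) and syndecan SDC3 -0.39 (adjusted p = 0.0907). Integrin ITGB3 had 0.55 (adjusted p = 0.161). The median of these receptors was -0.29, and NCL was their only call, near the 9.44% of all probe sets that passed as lower. Of 10 measured genes downstream of the PDGF receptors, PIK3R1, the regulatory subunit of phosphoinositide 3-kinase, was lower (5.12 ± 0.71 on day 7 and 6.49 ± 0.17 on day 3, change -1.37, adjusted p = 0.012), and the median was -0.09. It was the only call of this list, again near the share of all probe sets. PLCG1 (-0.35, adjusted p = 0.184), the adaptor CRK (-0.13, adjusted p = 0.252) and the transcription factor STAT3 (0.23, adjusted p = 0.262) had the next smallest p. Of 9 measured intermediate filaments, relatives of VIM, 2 were lower (the nuclear lamin LMNB1 and nestin, NES), 0 were higher, and the median was 0.12.

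**Figure D5:**
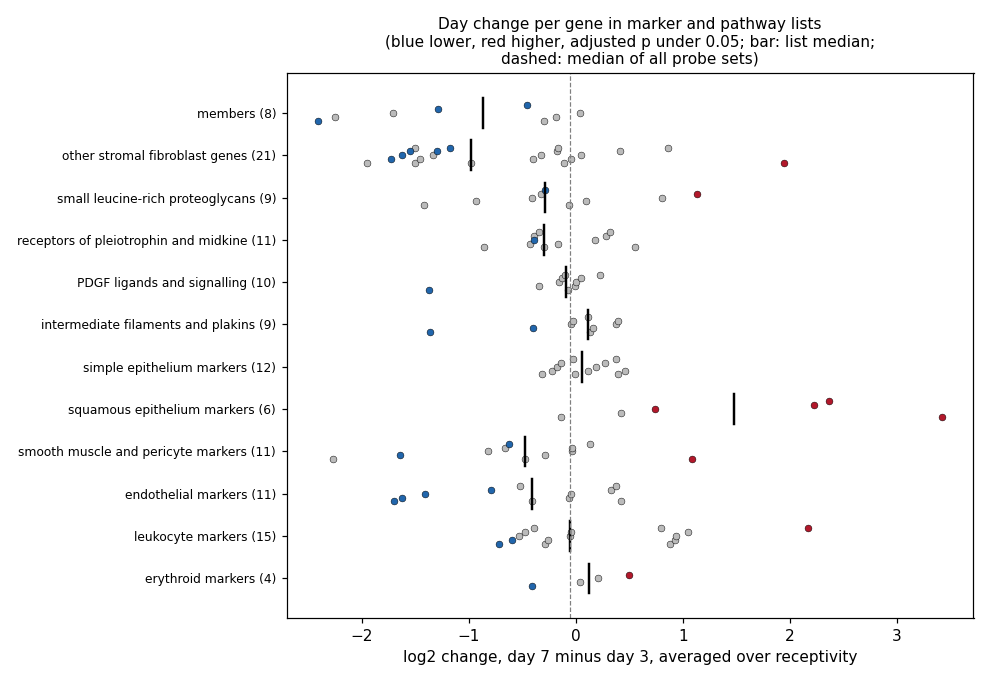
Log2 change between day 7 and day 3, averaged over receptivity (horizontal axis), for 1 probe set per gene in each list (rows, number of measured genes in brackets). Blue and red points passed with an adjusted p under 0.05 as lower and higher, black bars are list medians (-0.98 for other stromal fibroblast genes, 1.48 for squamous epithelium) and the dashed line is the median of all probe sets (-0.05).

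Calls between the days were also made among markers of other cell types, but not among those of simple epithelium. For all cell type lists below, the share of all probe sets that passed was 9.44% as lower and 14.2% in either direction. The level of a list is the mean log2 signal of its genes in a pool. Among simple epithelium markers 0 of 12 measured genes passed in limma, with a median change of 0.06 and no gene at 0. An unadjusted p under 0.05 was reached by 4 of them, and by 30.8% of all probe sets. Their level was 10.90 to 11.19 in receptive and 10.73 to 11.03 in non-receptive pools of day 7, and 10.75 to 11.00 in receptive and 10.73 to 10.95 in non-receptive pools of day 3. Markers of squamous epithelium were higher on day 7 in 4 of 6 genes (KRT5, KRT14, KRT15 and KRT17, median of the list 1.48). Their level was 5.90 to 6.93 and 7.03 to 7.22 in receptive and non-receptive pools of day 7 and 5.02 to 5.62 and 5.29 to 5.46 in those of day 3, with DSC3 at 0 in 1 pool.

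Endothelial markers were lower in 4 of 11 genes (CDH5, FLT1, TEK and EMCN, median -0.41), and their level was 5.04 to 5.37 and 4.84 to 5.41 in receptive and non-receptive pools of day 7 and 5.62 to 5.84 and 5.17 to 5.95 in those of day 3. Markers of smooth muscle and pericytes were lower in 2 of 11 genes (MYLK and MCAM) and higher in 1 (SMTN), with a median of -0.48. Their level was 5.13 to 5.54 and 5.16 to 5.99 in receptive and non-receptive pools of day 7 and 5.95 to 5.98 and 5.63 to 6.27 in those of day 3. Pool 3 of non-receptive day 3, which was low in DCN, LUM and VIM, was the lowest day 3 pool for the endothelial list (5.17) and the smooth muscle list (5.63). Its simple epithelium level (10.95) was the highest of its group but below that of pool 2 of receptive day 3 (11.00). Its leukocyte level (6.83) was the lowest of its group, though above the receptive pools of day 3. Its THY1 signal (8.41) was the highest of all 12 pools. Leukocyte markers were lower in 2 of 15 genes (PTPRC and MS4A1) and higher in 1 (CD68), with a median of -0.06 and ITGAM at 0 in 1 pool, and of 4 erythroid genes 1 was lower (ALAS2) and 1 higher (HBB), with a median of 0.13. The leukocyte level was 6.89 to 7.50 and 6.58 to 7.55 in receptive and non-receptive pools of day 7 and 6.66 to 6.82 and 6.83 to 7.12 in those of day 3. The part of these cell types in the differences of the stromal markers was not tested.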

How the data were processed

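The authors deposited log2 signals of 24128 probe sets for 12 arrays, with a floor at 0. Affymetrix Expression Console, PLIER and GCOS 1.1.1 appear in the submitters' processing notes, while the array scaling was not given in the sources used here. Values were used as deposited, without a filter. After 112 control probe sets were left out, limma 3.58.1 under R 4.3.3 was used to fit 4 group means over the 12 arrays (lmFit, then eBayes), and 7 contrasts were tested two-sided with Benjamini-Hochberg adjustment over 24016 probe sets and a threshold of 0.05. Genes were named from the platform annotation, in which 13292 probe sets had 1 symbol, 86 several and 10638 none.

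All member probe sets are described. Of the other lists, the counts and the median over 1 probe set per gene (highest mean) are given, and named are called genes of the stromal, proteoglycan, receptor and PDGF lists and up to 3 genes of each list with the smallest p otherwise. For each member the 3 genes with the highest Pearson's r over the 12 pools are named, among genes with 1 symbol and no value at 0. The called genes of the cell type and intermediate filament lists were named after their values were seen. Members and lists were chosen with earlier results of these data known.

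Alternatives were quantile normalization, median centring, a filter on the lowest 25 percent of mean signals, leaving out probe sets at the floor, the pool number as a block, a trend and robust variance model, the actin gap as a covariate, a fit on the compared groups alone and leaving out each of the 12 pools. The fit was tested on simulated data.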

Additional observations from a re-analysis of the deposited data

How the results depend on the processing

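In the averaged day comparison the count of member calls, 3, stayed between 2 and 4 under all 19 alternatives. In receptive endometrium the count of 0 became 2 with the filter on low signal, without probe sets at the floor and with the trend and robust model, when PTN and MDK passed, and it ranged from 0 to 2 when a pool was left out (2 without pool 2 of non-receptive day 7, 1 without pool 1 of receptive day 7 or pool 2 of receptive day 3). In non-receptive endometrium the count of 1 became 0 with median centring, with the pool number as a replicate block and with only the compared groups in the fit, and it ranged from 0 to 1 when a pool was left out (1 only without pool 2 of receptive day 3). The other stromal genes called lower, 5, were 9 with the filter on low signal and 3 with the actin gap as a covariate. PDGFRA probe set Bt.9423.1.S1_at turned to -0.13 with the actin gap as a covariate, and ranged from -0.16 to 0.25 (averaged) and from -0.21 to 0.61 (non-receptive) when a pool was left out. VIM ranged from -0.454 to 0.028 and from -0.66 to 0.31 in the same comparisons. The cause of these changes was not tested.

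Over all pairs of groups, same-numbered pools did not deviate together (r from -0.18 to 0.14 over 18 pairs, 3 of them over 0.1). Of 12 pools, 5 correlated best with their own number. These pairs include receptive against non-receptive pools, which would not hold the same animals. Pairs of both days within a receptivity class were not examined separately. The check therefore cannot decide whether same-numbered pools of both days came from the same animals. The numbers were not taken to pair the pools in the main fit. The replicate block gave 1994 lower and 1035 higher probe sets, against 2268 and 1144, and THY1 then had an adjusted p of 0.0544. The values hold no depth or background signal, and the dimmest member, PDGFRA probe set Bt.29877.1.S1_at, had a mean signal of 3.81.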

Other observations

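Lists around the members gave further values for the averaged day comparison, in which 9.44% of all probe sets passed as lower and 14.2% in either direction. Of 9 measured intermediate filament and plakin genes besides VIM, 2 were lower on day 7, lamin LMNB1 (7.21 ± 0.43 on day 7 and 8.56 ± 0.42 on day 3, SD of 6 pools each, change -1.36, adjusted p = 0.00753) and nestin NES (change -0.40, adjusted p = 0.0319), and the list had a median of 0.12. Of 15 measured leukocyte markers, the macrophage protein CD68 was higher (8.78 ± 1.0 on day 7 and 6.61 ± 0.16 on day 3, change 2.17, adjusted p = 0.0103), and PTPRC (-0.72) and the B cell marker MS4A1 (-0.60) were lower, with a median of -0.06. Of 4 measured erythroid genes, HBB was higher (0.50) and ALAS2 lower (-0.41), with a median of 0.13.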
